A study of Mus musculus with 4 samples.

Results

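The cells described here are endothelial cells of mouse subcutaneous fat that carried transcripts of Vwf, Ackr1 or Selp, the genes that mark veins and larger vessels. Endothelial cells line blood vessels. In most tissues the small veins behind the capillaries are where leukocytes leave the blood. Their cells store P-selectin (Selp) and von Willebrand factor (Vwf) in Weibel-Palade bodies, pass chemokines across the wall with the atypical receptor Ackr1, and display Vcam1, Icam1 and E-selectin (Sele) when activated by cytokines through NF-kB. Capillaries of fat instead carry the machinery of fatty acid uptake, such as Gpihbp1, which anchors lipoprotein lipase, Cd36 and Fabp4.

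Stromal vascular cells, the non-adipocyte cells released by digesting the tissue, came from female mice of genotype Cth+/+ or Cth-/-, fed for 4 days with the control diet or with one that lacked cystine. Cth encodes cystathionine gamma-lyase, which makes cysteine from cystathionine, and the design asks how cells respond when dietary cystine, the enzyme or both are missing. The sample labels call the diet cysteine free and the protocol cystine free. Subcutaneous depots were pooled after lymph nodes were removed, the number of animals behind each library is not given in the sources used here, and the Cth deletion was not described as limited to a cell type. Each of the 4 groups had 1 library, so there were no replicates and no test between groups was possible: the intervals given with values, at 95%, cover counting error alone, and differences due to the group and to the preparation of its library cannot be told apart. Where 4 values stand in a row, their order is Cth+/+ on the control diet, Cth+/+ without cystine, Cth-/- on the control diet and Cth-/- without cystine.

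A barcode was chosen when it had at least 500 UMIs (unique molecules counted), 300 genes and at most 10% mitochondrial UMIs, no Ptprc UMI, under 0.2% Dcn, at least 3 UMIs of Cdh5, Pecam1 and Cldn5 together, no Prox1 or Mmrn1 UMI, and at least 2 UMIs of Vwf, Ackr1 and Selp together. This took 277 of 22750 kept barcodes (1.22%), out of 3693 vascular endothelial barcodes that met every other condition. The 4 libraries gave 77, 108, 31 and 61 such cells, which held 405015, 830386, 141897 and 302417 UMIs. A count of 3 UMIs, the limit that a count of 0 allows, was therefore 7.41, 3.61, 21.1 and 9.92 CPM (UMIs per 1000000 UMIs of these cells). The choice used measured values, so the levels of its own genes are a description. Of the 277 cells, 73 had exactly 2 UMIs of the 3 marker genes, and 244 vascular barcodes stood just outside with 1 UMI.

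The chosen cells were deeper than the other vascular endothelial cells. Their median was 4754, 6322, 4331 and 4842 UMIs against 2122, 3579, 2046 and 2251 in the others. Between 40 and 69 barcode sequences occurred in both libraries of any pair, and no chosen cell shared its barcode with a chosen cell of another library. Scrublet called 1, 0, 2 and 0 of the chosen cells doublets. Cth itself gave 1 UMI in the chosen cells of the Cth+/+ control library and 0 in each of the other 3, so its absence in Cth-/- could not be checked in these cells. Platelets also contain Selp and Vwf: their markers summed to between 39.7 and 91.6 CPM in the chosen cells, against 282 to 416 CPM over all barcodes. Lymphocyte markers summed to at most 14.8 CPM. Macrophage and monocyte markers summed to 54.3, 52.99, 190.3 and 136 CPM, against 1448 to 2131 CPM over all barcodes, and 1 cell held 51.9% of these UMIs in the Cth-/- control library and 1 cell 56.1% in the Cth-/- cystine-free library.

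The name of the population held only in part. Of 12 listed venous markers outside the choice 7 were measured. In all 4 libraries, 5 of these 7 were at least 1.5-fold higher than in other vascular cells, beside 3.33% of 2641 genes. Of the 277 cells, however, 84 carried Vwf alone, 82 Vwf with Selp, 68 all 3 genes, 27 Selp alone, 11 Vwf with Ackr1, 4 Ackr1 with Selp and 1 Ackr1 alone. Summed over libraries, the 193 cells with Ackr1 or Selp had 2494 CPM of the venous markers and 708 CPM of arterial markers, while the 84 cells with Vwf alone had 1243 CPM and 1555 CPM. Capillary markers summed to 26601 CPM in the former and 32908 CPM in the latter, and Fabp4 made up most of both sums (21023 and 24724 CPM). Other capillary genes differed more, with Gpihbp1 at 833 and 1844 CPM, Car4 at 42.4 and 115 CPM and Btnl9 at 48.4 and 176 CPM. Of the capillary list, Fabp5 alone was lower in cells with Vwf alone (968 and 708 CPM). The venous sum differed through the adhesion genes Vcam1 (333 CPM in cells with Ackr1 or Selp, 24.9 CPM in cells with Vwf alone) and Icam1 (567 and 249 CPM) and through Lrg1 (672 and 195 CPM). Genes of venous identity were closer, with Nr2f2 at 193 and 159 CPM, Aplnr at 221 and 228 CPM and Ephb4, a receptor of venous endothelium, at 112 and 121 CPM.

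Clustering the chosen cells without the genes of the choice separated 6 groups. The genes used defined the clusters, so their levels describe the cells and are not results. Shares of clusters were not read as differences between libraries. Cluster 4 (45 cells) had the highest venous sum, 4909 CPM, and the highest Vcam1 (1018 CPM) and Lrg1 (1553 CPM). Its leading genes were Cytl1, Ccl4, Csf3, Vcam1, Rcan1, Tyrobp, Clu, Ly6d, Il6 and Cd24a, a set that also holds the leukocyte genes Ccl4 and Tyrobp. Gpihbp1 was 22.3 CPM there and between 903 and 2389 CPM in the other 5 clusters. Cluster 1 (68 cells), led by Fmo2, Ntf3, Il6ra and Icam1, had 2791 CPM of venous markers and Selp in 60 cells.

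Cluster 3 (27 cells) was arterial-like. It carried Gja5, the connexin of arterial endothelium, at 198 CPM and 0 in every other cluster, Hey1, a Notch target of arteries, at 274 CPM, and Sema3g at 581 CPM. Selp was at 0 UMIs there and 24 of its 27 cells had Vwf alone. Cluster 5 (40 cells), led by the metallothioneins Mt2 and Mt1 and by haemoglobin genes, had the highest capillary sum, 45074 CPM, with Car4 at 174 CPM, and 23 of its cells had Vwf alone. Cluster 0 (34 cells) was led by cell cycle genes and Apln, a peptide of angiogenic tip cells. Cluster 2 (63 cells) had 3200 CPM of pericyte and smooth muscle markers, as did cluster 3 with 3823 CPM, against 401 to 1121 CPM elsewhere. Its first gene, Ccl22, came from 1 cell.

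**Figure D1:**
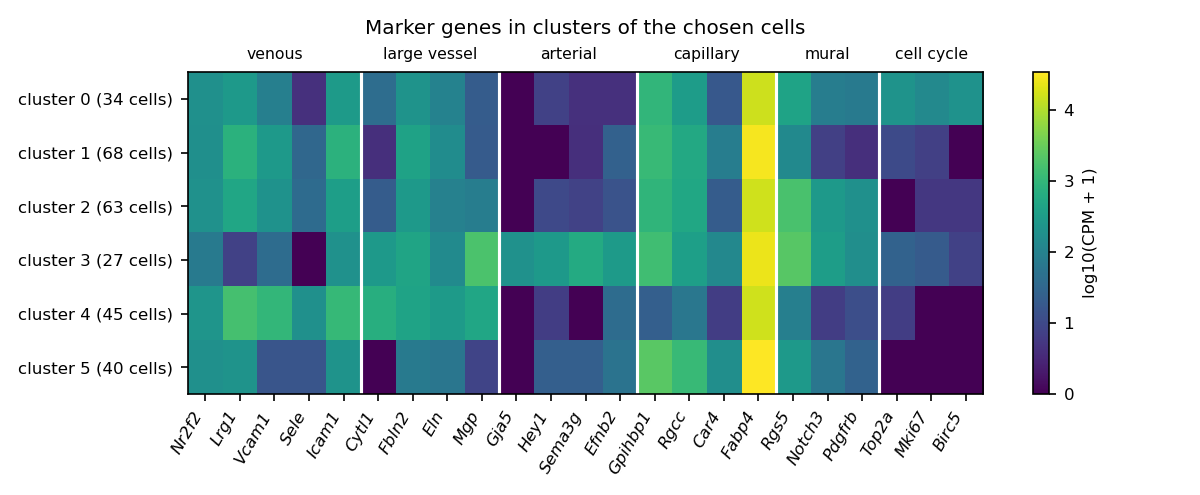
Levels of marker genes (columns, grouped by list) in the 6 clusters of the chosen cells (rows, with numbers of cells), as log10 of CPM plus 1 over all cells of a cluster. Gja5 is above 0 in cluster 3 alone, Vcam1 and Lrg1 are highest in cluster 4, and Top2a in cluster 0.

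The share of vascular endothelial cells that met the choice was 6.71% (5.33 to 8.32) in Cth+/+ on the control diet and 9.63% (7.97 to 11.5) in Cth+/+ without cystine. In Cth-/- it was 6.68% (4.58 to 9.35) with the control diet and 6.35% (4.89 to 8.08) without cystine. The Cth+/+ cystine-free library stood highest, and its interval overlapped those of all 3 others. That library also had the highest median UMI count, 6322. Depth did not follow the rest of the order, since the Cth-/- cystine-free library, with the lowest share, was next at 4842. When every vascular cell was thinned to 1000 UMIs, the shares were 1.27%, 1.76%, 0.971% and 2.30% in the same order, from 10, 14, 3 and 15 cells, and the Cth-/- cystine-free library stood highest. Of all kept barcodes, the chosen cells were 1.20%, 1.69%, 0.533% and 1.48%. No order of the 4 libraries was therefore read from these shares.

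**Figure D2:**
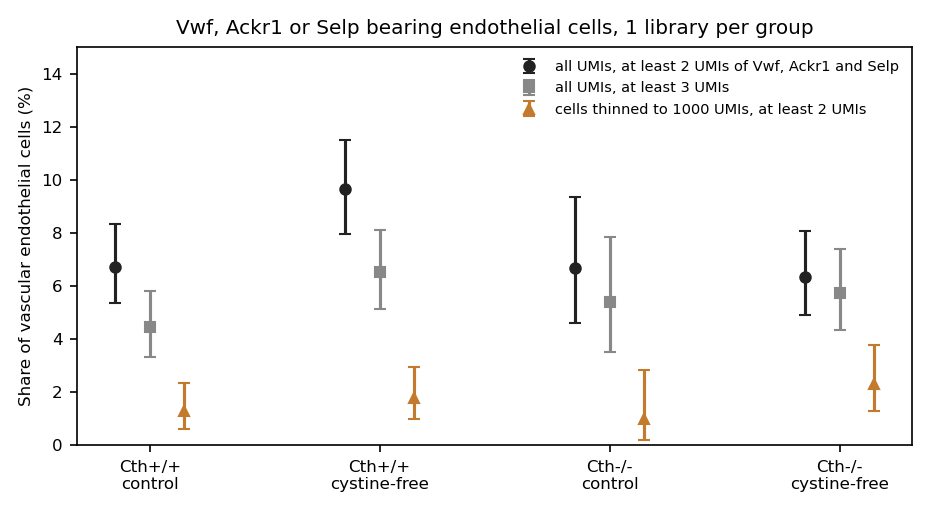
Share of vascular endothelial cells (percent) carrying at least 2 UMIs of Vwf, Ackr1 and Selp in each library, at full depth (circles), with at least 3 UMIs (squares) and with cells thinned to 1000 UMIs (triangles); bars are 95% Clopper-Pearson intervals. The Cth+/+ cystine-free library is highest at full depth, 9.63%, and the Cth-/- cystine-free library after thinning, 2.30%.

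The genes of the choice gave the following levels, as a description. Selp was 775, 384, 1261 and 1382 CPM. Ackr1 was 209.9, 126, 324 and 433 CPM, and Vwf 538, 387, 648 and 509 CPM. All 3 were lowest in the Cth+/+ cystine-free library. In the other vascular cells Selp was at most 5.77 CPM, a level that the choice itself sets.

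Set against the other vascular endothelial cells of the same library, of 2641 genes with enough counts 3.33% had a ratio of at least 1.5-fold upward in all 4 libraries and 4.92% downward. The cells were sorted by their own transcripts, so these contrasts describe the cells and carry no test. Vcam1, the adhesion molecule bound by leukocyte integrin VLA-4, was 225, 145, 691 and 294 CPM in the chosen cells and 16.8, 21.0, 12.7 and 16.5 CPM in the others. Sele was 39.5, 19.3, 106 and 59.5 CPM against at most 1.15 CPM. Icam1, the ligand of leukocyte LFA-1, had a median log2 ratio of 1.45, and Nr2f2, the transcription factor of venous identity, 1.07. Lrg1, a secreted glycoprotein made by venules, was 427, 485, 522 and 761 CPM against 125, 54.4, 136 and 59.6 CPM. For each of Vcam1, Sele and Lrg1, the lowest chosen library stood above the highest of the other cells.

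Among the other genes highest in these cells were signals to leukocytes and to the vessel wall, but the lists followed only in part. Of 10 leukocyte adhesion and transmigration genes 3 were at least 1.5-fold higher in all 4 libraries and 0 lower (median log2 ratio -0.05, -0.12 over all genes). Chemokine and cytokine genes were higher for 2 of 7 and lower for 1 (0.62), and NF-kB response genes for 2 and 0 of 7 (0.39). Weibel-Palade body genes were higher for 0 of 5 and lower for 1 (-0.34). The cytokine Il6 was 627, 366, 522 and 565 CPM against 117, 80.8, 124 and 109.7 CPM, and Cxcl10, which attracts T cells, had a median log2 ratio of 2.35. Rcan1, an inhibitor of calcineurin, was 341, 229, 549.7 and 618 CPM against 38.4 to 54.3 CPM. Tmem252 (median log2 ratio 2.48), Emp1, a membrane protein (2.39), Tagln, an actin-binding protein (2.30), Procr, the receptor of protein C (2.19), Adamts4, a protease of proteoglycans (2.00), and Rgs16, a regulator of G protein signalling (1.93), completed the named set. Tagln is also a smooth muscle marker: the summed smooth muscle and pericyte markers were 1585, 1956, 1579 and 810 CPM in the chosen cells and 1730, 2004, 1412 and 705 CPM in the others. Cytl1 was 106, 57.8, 409 and 132 CPM against 0.671, 1.53, 0 and 0.385 CPM, and lay in 4 to 7 of the chosen cells of each library. Plvap, the protein of fenestral diaphragms, was 746, 648, 853 and 823 CPM against 285 to 418 CPM. Entpd1, which degrades extracellular ATP, had a median log2 ratio of 1.64, and Fbln2 and Eln, proteins of elastic fibres, 1.65 and 1.54.

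Capillary genes were lower in the chosen cells. All 12 measured genes of the capillary list, and 8 of 9 of the fatty acid handling list, were at least 1.5-fold lower in all 4 libraries, with median log2 ratios of -1.36 and -0.99 beside -0.12 over all genes. The lists overlap and both hold Fabp4, so they are not separate results. Their sums were 28784 and 27337 CPM in the chosen cells of the Cth+/+ control library. Car4, a carbonic anhydrase of capillary endothelium, was 49.4, 62.6, 49.3 and 99.2 CPM against 398, 382, 458 and 762 CPM. Btnl9 had a median log2 ratio of -2.41, Lpl, lipoprotein lipase, of -1.93 and Gpihbp1 of -1.28. Npr3, the clearance receptor of natriuretic peptides (-2.38), and the endothelin receptor Ednrb (-2.22) were lower as well. The ligand Bmp6 was 42.0, 18.1, 0 and 16.5 CPM against 84.3 to 118 CPM. The named set also held Car3 (-2.66), Cfd (-2.39) and Retn (-2.23), which adipocytes express. Cxcl12 had a ratio of -1.37 and Jup, a junction plaque protein, of -1.72. The arterial list was mixed: of 8 genes Sema3g (-1.28), Efnb2 (-1.29) and Dll4 (-1.28) were lower in all 4 libraries and Clu (1.74) higher, with a median of -0.11 beside -0.12 over all genes.

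**Figure D3:**
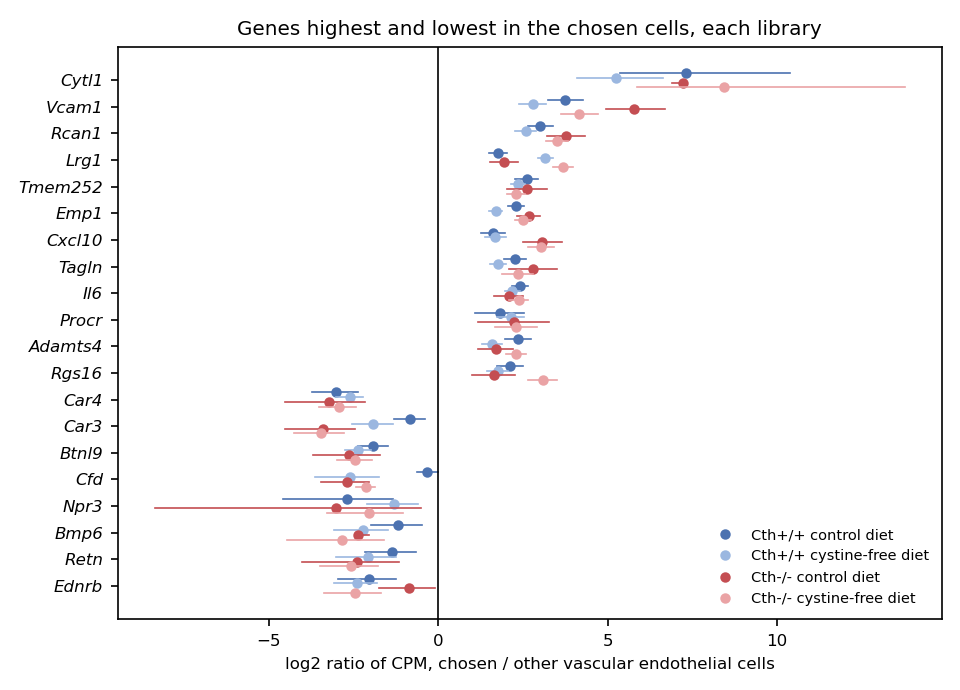
Log2 ratio of CPM between the chosen cells and the other vascular endothelial cells (horizontal axis) for the 12 highest and 8 lowest genes by median (vertical axis), each library as a point with its 95% counting interval; an open-ended interval is drawn to its finite end, and a count of 0 stands at the floor of 3 UMIs. Vcam1 lies between 2.79 and 5.77 in the 4 libraries and Car4 between -3.22 and -2.61.

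In Cth+/+ mice the cystine-free diet went with more cell cycle transcripts in these cells. At least 2 UMIs of Top2a, Mki67, Birc5 and Ube2c together, genes of DNA replication and mitosis chosen after their values were seen, were found in 1 of 77 cells on the control diet (1.30%, 0.0329 to 7.02) and 18 of 108 on the cystine-free diet (16.7%, 10.2 to 25.1). In Cth-/- they were found in 0 of 31 cells on the control diet and 0 of 61 without cystine, which allow shares of up to 9.68% and 4.92% by the limit of 3 counts and up to 11.2% and 5.87% by the Clopper-Pearson interval. In the other vascular cells the shares were 0.841%, 5.23%, 0.231% and 0.222%. Of the 18 cells, 12 also had Ackr1 or Selp. The 18 cells were deep, with a median of 12278 UMIs, and depth raises the chance of reaching 2 UMIs.

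Gene by gene, 10.7% of 3131 genes measured were at least 1.5-fold higher on the cystine-free diet and 11.9% at least 1.5-fold lower in Cth+/+ mice. Of 21 listed cell cycle genes 9 were measured. Of these 8 were higher and 0 lower, with a median log2 ratio of 2.80 (-0.01 over all genes, 1.64 in other vascular cells). Genes such as Top2a (3 and 69 UMIs) and Mki67 (2 and 46) met the minimum through the cystine-free library alone. Either comparison without that library measured 3 of the 21, so this count and median are a description. Without the minimum, all 21 summed to 699, 2248, 719 and 589 CPM over the 4 libraries. Top2a, which untangles replicated DNA, was 7.41 CPM on the control diet and 83.1 on the cystine-free diet (log2 ratio 3.49, 1.88 to 5.80), and 0 in both Cth-/- libraries. Mki67, a marker of cycling cells, was 4.94, 55.4, 0 and 0 CPM. Stmn1, which destabilises microtubules, was 56.8, 312, 35.2 and 23.1 CPM, so that the Cth+/+ cystine-free library stood apart from the other 3. The histone gene Hist1h2ap was 2.47 and 556 CPM (7.82), with 105 of its 462 UMIs in 1 cell. The cyclin-dependent kinase subunit Cks1b (2.74), the centromere histone Cenpa (2.80), Pclaf (5.15), Birc5 (4.92) and Ube2c (3.80) completed the 8 highest genes, all of which act in cell division. Of these, Hist1h2ap, Pclaf and Birc5 had 1 UMI on the control diet, with intervals of 5.33 to 13.1, 2.63 to 10.5 and 2.39 to 10.2, and Ube2c had 2 (1.88 to 6.88). Without cells rich in smooth muscle and pericyte markers, 5 of 6 cell cycle genes were higher with a median of 2.31, beside 14.9% of 2618 genes.

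Immediate early and NF-kB response genes that passed 1.5-fold were lower in the same pair of libraries. Of 19 immediate early genes, 6 were lower on the cystine-free diet and 0 higher (median log2 ratio -0.42, -0.17 in other vascular cells). Of 8 NF-kB response genes 3 were lower and 0 higher (-0.45). With each cell weighted equally 1 of 8 was lower, beside 10.0% of all genes. Ier3, an immediate early gene that NF-kB induces, was 1094 CPM on the control and 676 CPM on the cystine-free diet (log2 ratio -0.70), and Klf4 689 and 443 (-0.64). Nfkbia, the inhibitor that NF-kB induces, was 1348 and 959 CPM. Of 4 metallothionein and zinc genes 3 were lower, with Mt1 at 2476 and 1581 and Mt2 at 1257 and 613 CPM. Over cells with Ackr1 or Selp 1 of 3 was lower, beside 14.6% of all genes. Vcam1 had a log2 ratio of -0.64 (-1.04 to -0.23), Il6 of -0.78 (-1.02 to -0.53) and Icam1 of -0.32 (-0.58 to -0.06). Heat shock genes were higher for 3 of 13 and lower for 1 (median 0.00), and chemokine and cytokine genes higher for 2 of 9 and lower for 3 (-0.37).

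The 8 lowest genes of that comparison lay in 8 to 23 of the 77 chosen cells of the control library, and some rested on few cells. Csf3, the granulocyte colony stimulating factor, was 61.7 and 7.23 CPM (log2 ratio -3.09, -4.67 to -1.77), from 9 and 5 cells. The adipocyte gene Cfd was 235 and 13.2 CPM, with 46 of 95 UMIs in 1 cell of the control library, and Txndc16 had 20 of 29 UMIs in 1 cell. Irs2, an adaptor of the insulin receptor (-2.33), Cd24a, Crybb3 (-1.92), Car3 (-1.83) and Cdkn2aip (-1.65) followed. Smooth muscle and pericyte markers were higher in the cystine-free library for 3 of 7 genes and lower for 0 (median 0.43), and 4 of 18 basement membrane and matrix genes were higher and 0 lower. Cells with at least 0.1% of UMIs from those markers were 40.3% of the chosen cells on the control diet and 49.1% without cystine.

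In Cth-/- mice the cystine-free diet went with higher genes of fatty acid uptake and other capillary genes, in cells that as a whole carried less of them than other vascular cells. Of 2113 genes measured, 13.9% were at least 1.5-fold higher on the cystine-free diet and 12.6% at least 1.5-fold lower. Of 12 capillary genes 11 were higher and 0 lower, with a median log2 ratio of 1.03 (0.03 over all genes, 0.55 in other vascular cells). Fabp4 was 22081, 19342, 14687 and 33593 CPM. The last of these stood above the other 3 and the Cth-/- control library below them. Cd36, the fatty acid translocase, was 2521, 1971, 2037 and 3826 CPM (diet in Cth-/-: 0.91, 0.72 to 1.10). Gpihbp1 was 1257, 1233, 543 and 1052 CPM (0.95, 0.59 to 1.33), so that here the Cth-/- control library was low and the cystine-free library did not exceed those of Cth+/+. Kdr, the main receptor of VEGF, was the exception, at 493 and 397 CPM.

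In the cells with an Ackr1 or Selp UMI, 9 of 10 capillary genes were higher with a median of 1.61, beside 18.3% of 1658 genes. Of 8 genes of the fatty acid handling list, which overlaps the capillary list, 6 were higher and 0 lower (median 1.07). Among them was Angptl4, an inhibitor of lipoprotein lipase induced by fatty acids and fasting, at 114, 90.3, 119.8 and 499 CPM (2.06, 1.33 to 2.88). In other vascular cells Angptl4 was 268 CPM on the control and 796 CPM on the cystine-free diet of this genotype. Fabp4 and Lpl are also made by adipocytes. The 7 adipocyte markers summed to 306, 34.9, 183 and 439.8 CPM in the chosen cells and to 120, 49.9, 153 and 5686 CPM over all barcodes. In the Cth-/- libraries 3 and 2 of the 7 were at 0 in the chosen cells, and the part of adipocyte RNA in these values was not tested.

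Stress genes of the heat shock list were higher for 4 of 12 genes and lower for 1 (median log2 ratio 0.36). Hspa1a, an inducible chaperone, was 69.1, 128, 77.5 and 255 CPM (diet in Cth-/-: 1.72, 0.80 to 2.78), and Hspb1, a small heat shock protein, 723, 724, 564 and 1382 CPM (1.29, 0.95 to 1.66). Both were highest in the Cth-/- cystine-free library, and in other vascular cells Hspa1a was 280.2 and 1038 CPM on the control and cystine-free diets in Cth-/-. Exosc2, a part of the RNA exosome, gave 0 UMIs on the control diet and 48 without cystine (159 CPM). Against the floor of 3 UMIs this was 7.51-fold higher (log2 ratio 2.91, lower end of the interval 2.55). Lims2, an adaptor of cell adhesion, gave 0 and 30 UMIs, 4.69-fold higher against the floor (log2 ratio 2.23, lower end 1.84). Csf3 was 14.1 and 103 CPM (2.86, 0.89 to 5.97), from 2 and 6 cells. Slc10a6 (2.72, 0.73 to 5.83), Slc39a8, a zinc importer (2.19), the helicase Ddx18 (2.08, 0.38 to 4.44) and Lrrc8a, a volume-regulated anion channel subunit (2.05), completed the 8 highest.

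Basement membrane and matrix genes were lower without dietary cystine in Cth-/-. Of 13 basement membrane and matrix genes 7 were lower and 0 higher (median log2 ratio -0.69, -0.41 in other vascular cells). Col4a1 and Col4a2, the chains of collagen IV, were 543 and 241 CPM (-1.17, -1.65 to -0.69) and 303 and 129 CPM (-1.23, -1.90 to -0.57), and Sparc, a matrix protein that binds collagen, 1825 and 1065 CPM. Mcam, an adhesion molecule (-2.03), Plxnd1, a semaphorin receptor (-1.95), Ccnd1, a cyclin (-2.09), Marcksl1 (-2.01), Tnfaip3, a brake on NF-kB (-1.75), and Cald1 (-1.70) were among the 8 lowest. The other 2, Ccl22 and Mgp, rested on single cells: 1 cell of the Cth-/- control library held 63 of 63 Ccl22 UMIs, and 1 cell held 170 of 182 Mgp UMIs. Without the richest cell of each library Mgp had a ratio of -1.87, and over cells with Ackr1 or Selp it was reversed, 1.21 (-0.56 to 3.60). Of 4 smooth muscle and pericyte markers 3 were lower in the cystine-free library. Without the cells rich in them 4 of 12 matrix genes were lower, beside 13.6% of 1319 genes. In cells with Ackr1 or Selp, 2 of 11 matrix genes were lower and 1 higher (median -0.24), beside 11.3% and 18.3% of 1658 genes.

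Venous markers outside the choice were lower for 3 of 8 and higher for 0 (median -0.38). Vcam1 was 691 and 294 CPM (-1.23, -1.66 to -0.80) from 12 of 31 and 27 of 61 cells, and 1 cell of the control library held 34 of its 98 UMIs. Aplnr, the apelin receptor of veins, was 183 and 95.9 CPM (-0.93, -1.75 to -0.11). Sele (-0.83, -1.90 to 0.26) and Icam1 (-0.08, -0.46 to 0.30) had intervals that included 0, while Lrg1 was 522 and 761 CPM (0.54, 0.16 to 0.94). The wider list of leukocyte adhesion and transmigration was lower for 3 of 11 and higher for 0 (-0.08). The split of genes depended on the scaling: with median-of-ratios scaling 401 genes were higher and 183 lower, in place of 294 and 267, and the median of all genes was 0.15 in place of 0.03.

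**Figure D4:**
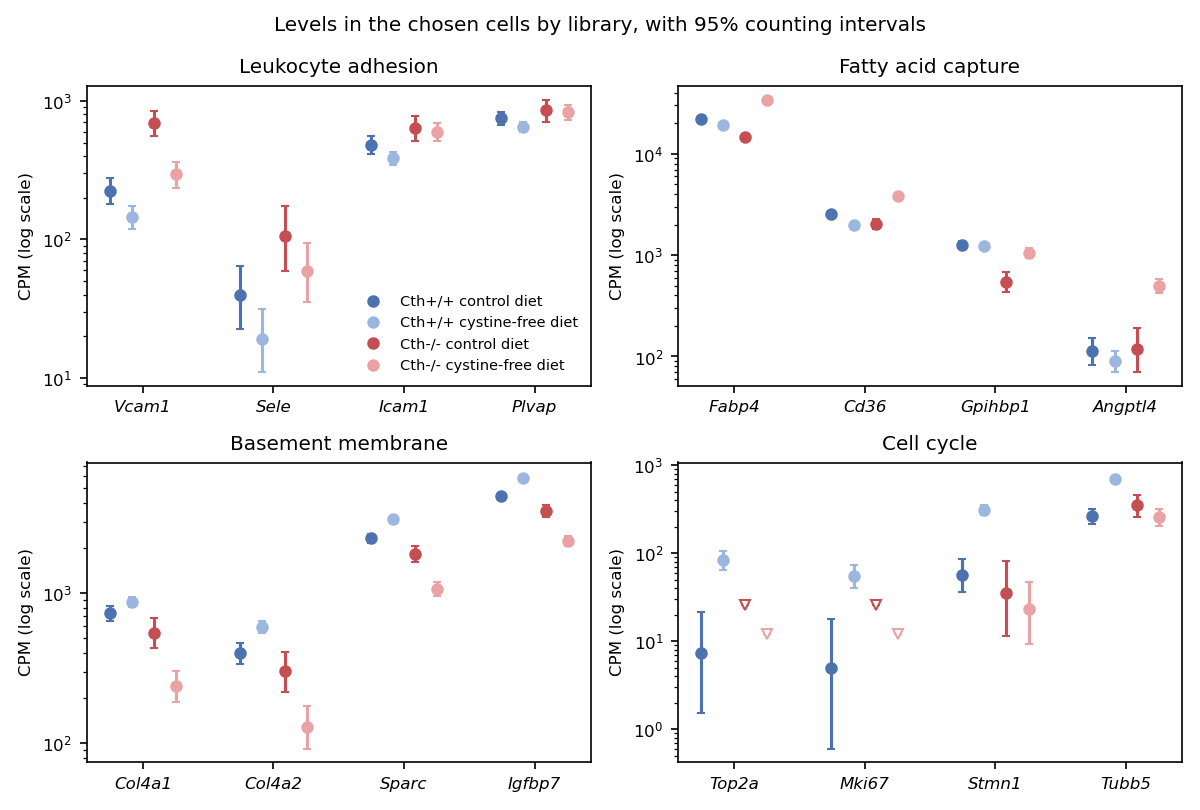
CPM in the chosen cells of each library (log axis) for 4 genes each of leukocyte adhesion, fatty acid capture, basement membrane and cell cycle; bars are 95% Poisson intervals of the counts, and open triangles mark the upper limit where a gene gave 0 UMIs. Fabp4 and Angptl4 are highest in the Cth-/- cystine-free library, Col4a1 lowest there, and Top2a highest in the Cth+/+ cystine-free library.

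On the control diet, loss of Cth went with lower capillary genes and higher Vcam1 in these cells, on 31 cells without Cth. Of 2616 genes measured, 9.25% were at least 1.5-fold higher in Cth-/- and 14.6% at least 1.5-fold lower. This comparison shares its Cth-/- control library with the comparison of diets in Cth-/-. Of 11 capillary genes 8 were lower and 0 higher (median log2 ratio -0.73, -0.10 in other vascular cells), among them Gpihbp1 at 543 in Cth-/- and 1257 CPM in Cth+/+ (-1.21, -1.58 to -0.86), Rgcc at 282 and 546 (-0.95) and Lpl at 56.4 and 163 (-1.53). Vcam1 was 691 against 225 CPM (1.62, 1.19 to 2.05), and 451 against 168 CPM without the richest cell of each library. In other vascular cells Vcam1 was 12.7 and 16.8 CPM. Cluster 4, with the highest Vcam1 and low Gpihbp1, held 9 of 31 chosen cells in Cth-/- (29.0%, 14.2 to 48.0) on this diet. In Cth+/+ it held 12 of 77 (15.6%, 8.32 to 25.6). The intervals overlap, and these shares were not read as a difference between the libraries. The part of cell makeup in the differences of Vcam1 and the capillary genes was not tested. Chemokine and cytokine genes were higher for 5 of 9 and lower for 0 (median 0.65), with Cxcl2, which attracts neutrophils, at 134 against 34.6 CPM. Without doublets 2 of 8 were higher (median 0.22), beside 8.85% of all genes. With a mitochondrial limit of 5%, which left 13 cells in Cth-/-, 1 of 6 was higher and 3 lower (median -0.70), beside 12.4% and 18.2% of all genes.

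Marcksl1 (1.90), Tnfaip3 (1.76), Pabpc4, a poly(A) binding protein (1.68), and Noct, a phosphatase of NADP cofactors (1.62), were among the 8 highest genes. Ccl22 and Mgp again rested on the 2 cells described above, and Cytl1 (1.94) had 33 of 58 UMIs in 1 cell. Mgp had a ratio of 4.11, which was 1.01 without the richest cell of each library and reversed over cells with Ackr1 or Selp (-1.504, -3.89 to 0.23). The lowest were Fhl1 (-2.84, -5.94 to -0.90), the adhesion molecule Nectin2 (-2.84, -5.94 to -0.90), Gatad1 (-2.44, -5.55 to -0.47), Hnrnpul1 (-2.39, -5.50 to -0.41), Phactr2 (-2.29, -5.41 to -0.31), Dynlt3 (-2.07, -4.42 to -0.41) and Scd1, a fatty acid desaturase (-2.07, -3.75 to -0.77), each with 2 to 5 UMIs in Cth-/-. Lims2, also among the lowest, had 0 against 37 UMIs, 4.32-fold lower against the floor (-2.11, upper end -1.74). With median-of-ratios scaling 183 genes were higher and 461 lower, in place of 242 and 383, and the median of all genes was -0.12 in place of -0.03.

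On the cystine-free diet the libraries with and without Cth differed in the largest shares of genes: of 3150 measured, 19% were at least 1.5-fold higher in Cth-/- and 21.9% at least 1.5-fold lower. This comparison shares both its libraries with the comparisons of diets. Stress genes were higher without Cth. Of 19 immediate early genes 10 were higher and 0 lower (median log2 ratio 0.64, 0.65 in other vascular cells), of 14 heat shock genes 8 and 2 (0.74, 0.88), and of 4 metallothionein and zinc genes 4 and 0 (1.11, 1.16). Over cells with Ackr1 or Selp 6 of 19 immediate early genes were higher (median 0.40), beside 19.2% of all genes. With each cell weighted equally 5 of 14 heat shock genes were higher, beside 15.9%. Without cells rich in smooth muscle and pericyte markers 2 of 3 metallothionein and zinc genes were higher, beside 15.6%. Mt1 was 4269 CPM in Cth-/- and 1581 in Cth+/+ (1.43, 1.32 to 1.54), and Hspb1 1382 and 724 CPM. Cdkn1a, the cell cycle inhibitor p21, was 701, 469.7, 888 and 1511 CPM over the 4 libraries and 735, 606, 1441 and 2265 CPM in other vascular cells. It stood highest in the Cth-/- cystine-free library in both.

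Over all chosen cells, inflammatory and venous genes were also higher without Cth on this diet. Of 7 NF-kB response genes 5 were higher and 0 lower (median 0.72, 0.47 in other vascular cells), with Nfkbia at 1587 against 959 CPM (0.73, 0.56 to 0.89) and 548 against 538 CPM in other vascular cells. Over cells with Ackr1 or Selp, 1 of 7 was higher with a median of 0.42, beside 19.2% of 3014 genes measured in those cells. Of 8 venous markers 5 were higher and 1 lower (0.62): Vcam1 was 294 against 145 CPM (1.03, 0.61 to 1.43), Sele 59.5 against 19.3 (1.63, 0.57 to 2.69), Icam1 599 against 385 (0.64, 0.36 to 0.90) and Lrg1 761 against 485 (0.65, 0.41 to 0.89), while Aplnr was 95.9 against 269 (-1.49, -2.10 to -0.92). Over cells with Ackr1 or Selp 3 of 8 were higher, and with each cell weighted equally 2 of 8, beside 19.2% and 15.9% of all genes. Cells with Ackr1 or Selp were 52 of 61 in Cth-/- and 68 of 108 in Cth+/+, so the makeup of the chosen cells moved with these genes. Of 10 chemokine and cytokine genes 6 were higher and 3 lower, with Cxcl10 at 360.4 against 166 CPM (1.12, 0.74 to 1.49), Ccl7 at 152 against 34.9 and Cxcl12 at 301 against 611. Thbd, thrombomodulin, the cofactor by which endothelium activates protein C, was 522 against 222 CPM (1.24, 0.92 to 1.55).

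Matrix and cell cycle genes were lower without Cth on this diet. Of 18 basement membrane and matrix genes 11 were lower and 0 higher (median log2 ratio -0.87, -0.68 in other vascular cells). Without cells rich in smooth muscle and pericyte markers 10 of 15 were lower, beside 23.2% of 2532 genes. Col4a1 was 241 against 877 CPM (-1.86, -2.23 to -1.51), Col4a2 129 against 597 and Sparc 1065 against 3107. In cells with Ackr1 or Selp, 6 of 16 were lower and 1 higher, with a median of -0.46, beside 21.0% and 19.2% of all genes. Smooth muscle and pericyte markers were lower for 6 of 7 genes, with Rgs5 at 288 against 999.5 CPM, and cells rich in them were 26.2% of the chosen cells in Cth-/- and 49.1% in Cth+/+. Col3a1, a collagen made mainly by the progenitor cells, was 39.7 against 342 CPM in the chosen cells and 379 against 5894 CPM over all barcodes. The part of RNA from smooth muscle, pericytes and progenitors in the result was not tested.

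Of 21 listed cell cycle genes 9 were measured, of which 8 were lower and 1 higher (median -2.48). Genes such as Top2a again met the minimum through the Cth+/+ cystine-free library alone, so the count and median are a description. Top2a gave 0 against 69 UMIs, 8.38-fold lower against the floor of 3 UMIs. Apln gave 0 against 77 UMIs, 9.35-fold lower against that floor (log2 ratio -3.22, upper end of the interval -2.89). The 8 lowest genes were Hist1h2ap (-7.39, -12.7 to -4.91, from 1 against 462 UMIs), Cks1b (-3.90, -6.97 to -2.001), Stmn1 (-3.75), the proteasome subunit Psmd2 (-3.35, -6.43 to -1.43), Dctpp1, an enzyme of nucleotide metabolism (-3.35, -5.66 to -1.75), Arhgdib (-3.24, -6.33 to -1.32), Cks2 (-3.24, -5.55 to -1.64) and Apln. The 8 highest were Csf3 (3.83, 2.54 to 5.38), Exosc2 (2.72), Angptl4 (2.47, 2.06 to 2.89), Pbld1 (2.32), the Wnt receptor Fzd5 (2.04), Pfkfb3, an activator of glycolysis (2.00), Hilpda, an inhibitor of lipolysis (1.99), and Psen2 (1.97). Exosc2, at 159 against 24.1 CPM, and Angptl4 stood higher in other vascular cells too (1.91 and 2.27).

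**Figure D5:**
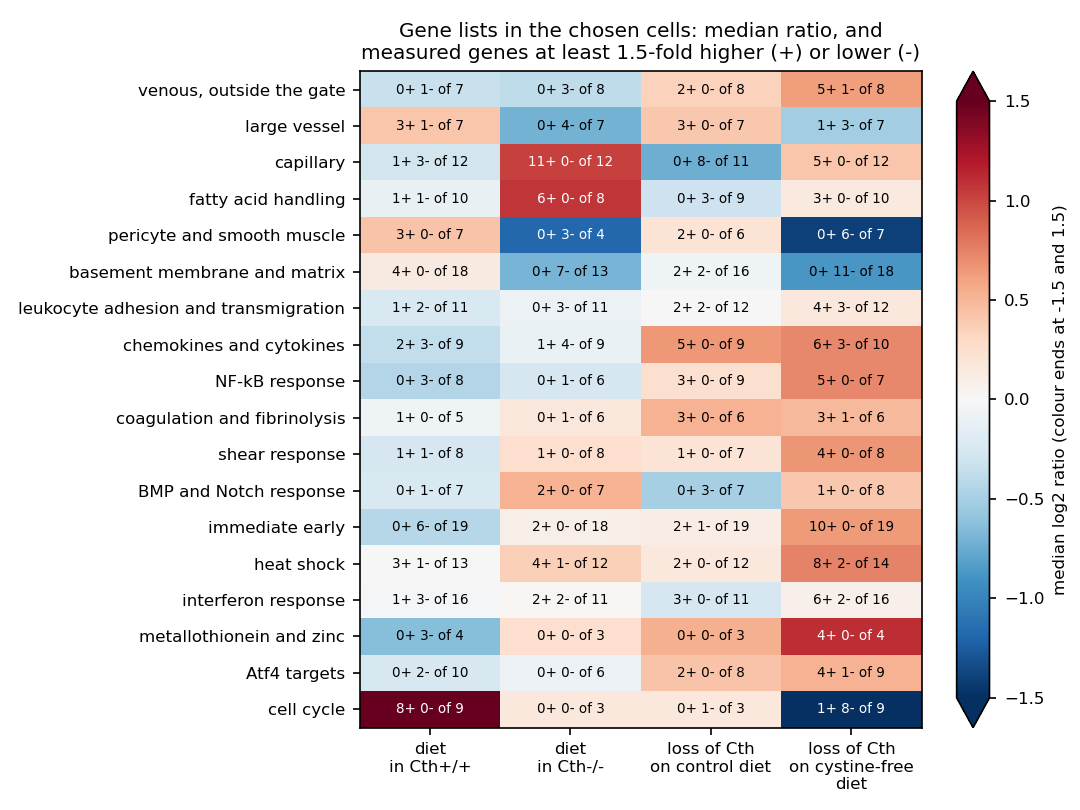
Median log2 ratio of each gene list (rows) in the 4 comparisons between libraries (columns), as colour, with the number of measured genes at least 1.5-fold higher (+) or lower (-). Capillary genes have a median of 1.03 for the diet in Cth-/-, and cell cycle genes 2.80 for the diet in Cth+/+ and -2.48 for loss of Cth on the cystine-free diet. Each of these 2 cell cycle medians rests on 9 of 21 listed genes.

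Lists tied to amino acid supply and interferon were, like other lists, measured only in part. Atf4 targets, switched on when amino acids run short, were higher for 0 of 10 and lower for 2 with the diet in Cth+/+ (median -0.24), where 11.9% of all genes were lower, and for 0 and 0 of 6 in Cth-/- (-0.09). Without Cth they were higher for 2 of 8 and lower for 0 on the control diet (0.43), beside 9.25% of all genes higher. On the cystine-free diet they were higher for 4 of 9 and lower for 1 (0.52), beside 19% and 21.9% of all genes, and their median in other vascular cells was 0.51. Interferon response genes were higher for 1 and lower for 3 of 16 with the diet in Cth+/+ (-0.02), and for 2 and 2 of 11 in Cth-/- (0.02). For loss of Cth they were higher for 3 and lower for 0 of 11 on the control diet, with a median of the other sign (-0.25), and for 6 and 2 of 16 on the cystine-free diet (0.07). Of 31 listed Atf4 targets at most 10 reached the minimum of 30 UMIs and 50 CPM, and Trib3 gave 4 UMIs in all, so differences in those genes were not detectable at this depth.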

How the data were processed

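The authors deposited UMI counts, not normalized, for called cells, from Cell Ranger 3.0.0 per the file headers and mm10 per the submitters' processing notes. Libraries held 4394 to 7312 barcodes and 15948807 to 30944977 UMIs. The rule that chose the cells and the 40 gene lists (470 genes with a match; Ccl21a and Ccl19 left out for duplicate symbols) were set with earlier results of these data known. Counts were summed over chosen cells per library and divided by their total (CPM). Ratios carry no pseudocount; a count of 0 was set to a floor of 3 UMIs. A gene was measured in a comparison with at least 30 UMIs over both libraries and 50 CPM in the higher; a list counts genes at least 1.5-fold apart. Named genes are the 8 highest and 8 lowest that were at least 2-fold apart and held at least 1/2 of the library's CPM in the chosen cells; against other vascular cells, the 12 highest and 8 lowest by median of those on 1 side in all 4 libraries. This rule passed over Xist, gene models without a name, and genes of haemoglobin, immunoglobulin, ribosomes and mitochondria; list members could also be named. Ratio intervals are exact conditional binomial, shares Clopper-Pearson and levels Poisson, at 95%; the ratio step was tested on simulated data. Members were clustered with scanpy 1.11.5 (1000 variable genes, 15 components, 15 neighbours) and the Leiden method of igraph 0.11.9 at resolution 0.5, settings chosen here. Doublets were called with Scrublet at 0.8% per 1000 barcodes and kept in the main values. UMIs remove PCR copies, but intervals cover counting error only. Alternatives tried were 3 marker UMIs, thinning to 1000 UMIs, 1000 UMIs with 500 genes, doublet removal, a 5% mitochondrial limit, a mean over cells, median-of-ratios scaling and a filter of 10 UMIs; added after seeing the data were leaving out cells rich in smooth muscle and pericyte markers, cells with Vwf alone, or the cell richest in each gene.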

Additional observations from a re-analysis of the deposited data

Results flagged for a closer look

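For 5 named genes the log2 ratio of the cystine-free diet had opposite signs in the 2 genotypes; the difference was not tested, since each value comes from 1 library on either side. Csf3 had -3.09 in Cth+/+ and 2.86 in Cth-/-, with its UMIs in 9, 5, 2 and 6 cells of the 4 libraries, in the order used above. Cfd had -4.15 and 1.53, and Mgp 1.55 and -4.35, the last from a library in which 1 cell held 170 of 182 UMIs. Pfkfb3 had -1.31 and 1.23, at 71.6, 28.9, 49.3 and 116 CPM in the 4 libraries, and Scd1 -1.39 and 1.76, at 148, 56.6, 35.2 and 119 CPM. Barcodes that met every condition but the mitochondrial limit numbered 5 (Cth+/+, control diet), 8 (Cth+/+, without cystine), 0 (Cth-/-, control diet) and 2 (Cth-/-, without cystine), 15 in all; they entered no value.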

How the results depend on the processing

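No paired analysis was possible because each group had 1 library. The small numbers of cells limit these results: 31 cells in the Cth-/- control library make single cells weigh heavily, and no replicate shows how much libraries differ by preparation. The share of vascular cells was 4.45% (Cth+/+ control) and 6.51% (Cth+/+ cystine-free) with at least 3 marker UMIs, and 1.27%, 1.76%, 0.971% and 2.30% after thinning (order as above). Thinning left 19 genes higher and 16 lower than in other vascular cells in all 4 libraries, in place of 88 and 130, with fewer genes reaching the minimum. With a filter of 10 UMIs and no CPM minimum the genes at least 1.5-fold higher and lower were 1503 and 1446 (diet in Cth+/+), 1074 and 1092 (diet in Cth-/-), 1034 and 1402 (loss of Cth, control diet) and 1508 and 2274 (loss of Cth, cystine-free diet), in place of 336 and 374, 294 and 267, 242 and 383, and 600 and 689. Without cells rich in smooth muscle and pericyte markers the loss of Cth gave 152 and 212 on the control diet and 394 higher on the cystine-free diet; over cells with Ackr1 or Selp it gave 143 and 238 on the control diet. Both leave fewer cells. Under the 5% mitochondrial limit the 12 main results checked stayed the same, while of the other results 11 moved and 52 did not. Without cells rich in smooth muscle and pericyte markers 3 main results moved and 11 did not. Of the other results 14 moved there and 68 did not. Not every one of these changes is described above. Over cells with Ackr1 or Selp the log2 ratio of Mgp was reversed, to 1.21 for the diet in Cth-/- (-4.35 over all chosen cells) and to -1.504 for loss of Cth on the control diet (4.11); these cells leave out the 1 cell that held most of its UMIs.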

Other observations

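Values not described above concern the pairs of genes that separate vessel types. Mgp, an inhibitor of calcification, was 1749 CPM in cluster 3 (274 UMIs, 170 of them in the 1 cell of the Cth-/- control library named above), 479 CPM in cluster 4 and at most 82.3 CPM in the other clusters. Clu, clusterin, was 790 CPM in cluster 4 and 332 CPM in cluster 3. Madcam1, the ligand of the gut-homing integrin, was 172 CPM in cluster 0 and 141 CPM in cluster 5, and over libraries 114, 77.1, 63.4 and 29.8 CPM in the order used above, from 7, 13, 4 and 3 cells. Cd34 was 269, 285, 268 and 122 CPM in the chosen cells and 207, 226, 183 and 93.9 CPM in other vascular cells, lowest in the Cth-/- cystine-free library in both.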
